A study of Homo sapiens with 2 samples.

Results

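Latexin and its relative RARRES1, together with the carboxypeptidases CPA4, CPD, CPE and CPM, were examined in MTA1-overexpressing NCI-H446 cells and in control NCI-H446 cells. The 6 genes were found by their symbols among 22465 genes that the arrays named. They had been chosen from earlier results of these same arrays, in which LXN had one of the largest lower differences, so the differences below describe these arrays and carry no test. Latexin was 5.89-fold lower on the MTA1 array than on the control array, whereas none of the other genes differed by 2-fold.

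NCI-H446 is a human cell line established from a small cell lung carcinoma. The MTA1 cells stably carried an overexpression plasmid for MTA1, a subunit of a histone deacetylase and nucleosome remodelling complex, and the control cells carried a control vector, so both groups had been transfected. The labels do not state whether each line was a clone or a pool. Total RNA of each was hybridised to 1 Affymetrix array, which leaves no spread between replicates. The number of arrays therefore limits the precision, and the plasmid, the culture and the array cannot be told apart as sources of a difference.

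Carboxypeptidases remove amino acids one at a time from the C-terminal end of peptides and proteins. The metallocarboxypeptidases hold a zinc ion in the active site. They include digestive-type enzymes, made as inactive precursors, and regulatory-type enzymes, which trim hormones, growth factors and kinins after other proteases have cut them. Latexin is the endogenous inhibitor of the digestive-type enzymes known in mammals, it binds the mature enzyme, and its fold resembles a pair of cystatin domains. It is also known as a regulator of stem cell number in mouse bone marrow. RARRES1, or tazarotene-induced gene 1, encodes a membrane protein with a latexin-like domain and takes its name from its induction by retinoids.

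Values are the deposited log2 signals, and a difference is always MTA1 minus control on the log2 scale. A gene was taken as above background when the higher of its signals reached 3.62, the median over transcript clusters, a transcript cluster being the set of probes that reads 1 gene. All 6 genes reached this floor on both arrays, and 14451 genes reached it on at least 1. Each of the 6 was read by 1 transcript cluster, so no second cluster checks its value. Signals of different genes are not read as relative amounts of RNA, because probes differ in brightness.

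MTA1 itself, the check of the labels, had a signal of 9.82 on the MTA1 array and 7.31 on the control array, a 5.71-fold difference. The neuroendocrine markers of small cell lung carcinoma were low. Of 8 such genes 6 were measured, and 4 of these, CHGA, SYP, NCAM1 and DLL3, were below the floor on both arrays. INSM1 had 4.21 on the MTA1 array and 4.06 on the control array, and UCHL1 had 5.21 and 5.30 on the same arrays. Of 5 measured epithelial markers, the keratins KRT8 and KRT18 were bright, with KRT8 at 14.39 on the MTA1 array and 13.66 on the control array. KRT19 had 6.04 on the MTA1 array and 5.18 on the control array, and EPCAM had 4.18 and 3.96 on the same arrays. CDH1 was below the floor on both arrays. All 4 measured leukocyte markers and all 3 measured mast cell markers were below the floor on both arrays, as were 3 of 5 measured fibroblast markers. Of 5 measured pancreatic acinar markers 4 were below it, and CPA1 was at the floor. Summed on the linear scale, the neuroendocrine markers came to 99.3 on the MTA1 array and 98.5 on the control array. Those sums take in all 6 measured genes, and thus the background signal of the 4 below the floor. The epithelial markers, summed in the same way, came to 30896 on the MTA1 array and 20745 on the control array, nearly all of it from KRT8 and KRT18. The part of these markers in the differences below was not tested.

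The start regions of LXN and RARRES1 are shown because these related genes lie side by side on chromosome 3 and are the pair with the largest differences of the 6. Each window runs from 250 bases before to 50 bases after the gene's RefSeq start, 5′ to 3′ along the gene's own strand, which is the minus strand for both. The LXN window is chr3:158672599-158672898 and the RARRES1 window is chr3:158732408-158732707 in GRCh38.p14. Capitals mark matches on either strand to 4 short motifs, CAGGTG (the E-box type bound by Snail), TATAAA (the TATA box), GGGCGG (the GC box) and AGGTCA (a nuclear receptor half-site).

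LXN: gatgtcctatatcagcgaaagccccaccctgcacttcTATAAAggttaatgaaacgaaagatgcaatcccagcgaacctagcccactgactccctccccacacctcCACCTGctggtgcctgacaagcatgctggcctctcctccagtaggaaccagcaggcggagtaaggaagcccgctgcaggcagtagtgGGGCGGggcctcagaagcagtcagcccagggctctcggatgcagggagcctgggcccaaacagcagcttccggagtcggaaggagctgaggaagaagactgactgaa

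RARRES1: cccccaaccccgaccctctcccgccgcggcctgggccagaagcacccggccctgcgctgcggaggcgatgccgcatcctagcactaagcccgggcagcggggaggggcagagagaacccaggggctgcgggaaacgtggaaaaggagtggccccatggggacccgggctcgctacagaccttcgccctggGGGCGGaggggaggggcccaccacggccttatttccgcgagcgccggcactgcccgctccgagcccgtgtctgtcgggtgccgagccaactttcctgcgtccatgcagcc

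The LXN window held 1 CAGGTG-type E-box, which starts 144 bases before the gene's start and reads CACCTG on the strand shown. It also held 1 TATAAA, 213 bases before the start, and 1 GGGCGG, 57 bases before it. The RARRES1 window held only a GGGCGG, 60 bases before its start. No AGGTCA was present in either window. Such matches are common. Shares were counted over 35116 RefSeq windows of the same length, leaving out 1 chromosome that holds none of the members. Of these windows, 20.6% held the E-box, 11.5% TATAAA, 45.0% GGGCGG and 13.8% AGGTCA. The E-box was searched because SNAI1, which encodes Snail, was 6.32-fold higher, at 8.55 on the MTA1 array and 5.89 on the control array. That motif was chosen after these values and the windows had been seen. Among the other members, CPE held the same E-box 152 bases before its start, and CPE was 1.21-fold lower. CPA4, CPD and CPM held none in any of their windows. Of the genes without the E-box, RARRES1 was 1.38-fold and CPM 1.28-fold lower, and CPA4 and CPD were close to level. Whether the motif bears on these differences was not tested. CPA4 held overlapping TATAAA matches at 30 and 28 bases before its start. A match describes letters in the window, and binding was not measured. The bases of the LXN window were 58.7% G or C, and those of the RARRES1 window 72.0%.

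LXN had a log2 signal of 8.79 on the MTA1 array and 11.35 on the control array. The MTA1 signal was 17.0% of the control signal on the linear scale, and the difference was -2.56. LXN remained well above background in the MTA1 cells, by 5.18 log2 units over the floor, against 7.73 in the control cells. Both signals were bright, so the difference was one of level and not of presence against absence. Ordered by difference, LXN stood at rank 5 from the lowest of the 14451 genes. The gene next below it in this order was IGF2BP2, at -2.61, and the gene next above it was BCAT1, at -1.63, which leaves a gap of values between LXN and the genes that follow.

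RARRES1, the other gene of the latexin family, had a signal of 4.18 on the MTA1 array and 4.64 on the control array. It was 1.38-fold lower, a difference of -0.46. Its signals lay 0.56 above the floor on the MTA1 array and 1.02 above it on the control array, so it was a dim gene in both groups. Both genes of the latexin family were lower, but the difference of LXN was 2.10 log2 units further down than that of RARRES1. Among 2445 genes within 0.5 log2 units of the mean signal of RARRES1, 5.24% had a difference at least as large in either direction.

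CPA4 is a digestive-type carboxypeptidase first known from histone deacetylase inhibitor treated prostate cancer cells, and latexin inhibits it. CPA4 had a signal of 8.49 on the MTA1 array and 8.56 on the control array. The difference was -0.07, and 68.2% of all genes at or above the floor had a difference at least as large in size. The inhibitor LXN was lower while the enzyme it inhibits was close to level, and their differences were 2.49 log2 units apart. Transcript signals do not report enzyme activity, which was not measured.

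CPD, a membrane-bound regulatory-type carboxypeptidase of the trans-Golgi network with several catalytic-type domains, was the most nearly level of the 6. It had 13.87 on the MTA1 array and 13.87 on the control array, and the difference was -0.00099. CPE, which trims prohormones in secretory granules of endocrine and neural cells, had 7.30 on the MTA1 array and 7.58 on the control array. That made CPE 1.21-fold lower, at -0.28. CPM, a regulatory-type enzyme anchored to the cell surface that removes C-terminal arginine and lysine from peptides such as kinins, had 5.84 on the MTA1 array and 6.20 on the control array. It was 1.28-fold lower, at -0.36. Of all genes at or above the floor, 16.0% differed by at least as much as CPE and 9.99% by at least as much as CPM.

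**Figure D1:**
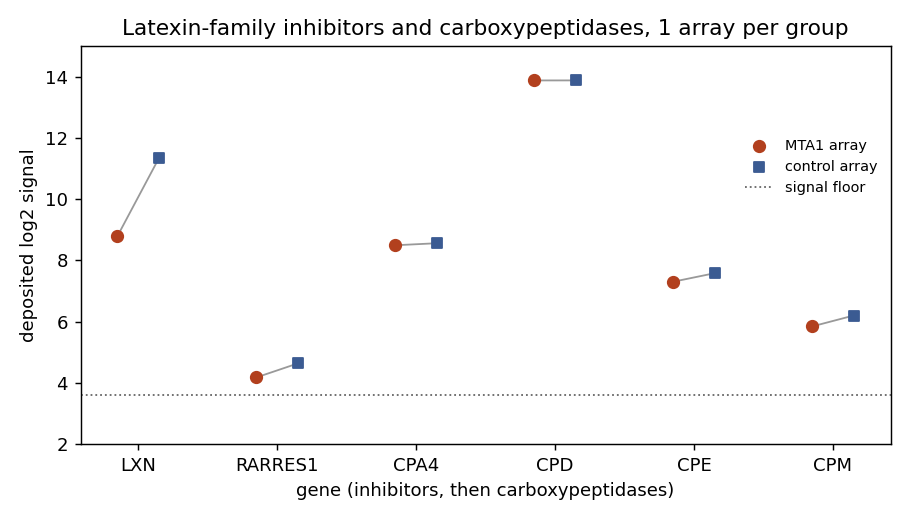
Deposited log2 signal of the 6 genes on the MTA1 array (circles) and the control array (squares), 1 array per group, with the signal floor of 3.62 as a dotted line and grey lines joining the arrays of 1 gene. LXN is at 8.79 on the MTA1 array and 11.35 on the control array, and the other lines are close to flat.

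On the MTA1 array 1 of the 6 genes was at least 2-fold lower and 0 were at least 2-fold higher. Over all 14451 genes at or above the floor, 49 (0.339%) were at least 2-fold lower and 42 (0.291%) at least 2-fold higher. All 6 differences were below 0 as deposited, as were 53.6% of all genes. With the arrays centred on their medians, CPD was at 0.01, and with quantile normalisation repeated, CPA4 was at 0.001, so their signs follow the scaling. The spiked hybridisation controls (cre, bioB, bioC, bioD), which are added to each sample before hybridisation, were higher on the MTA1 array by 0.23 to 0.28. With the arrays shifted to level these controls, the median of all genes was -0.26, and 17 genes were 2-fold higher and 119 lower in place of 42 and 49. Differences below are relative to the deposited scaling, and that shift would lower each of them by 0.24. The median difference of the 6 was -0.32, that of the 4 carboxypeptidases -0.17 and that of all genes -0.013. Since these genes were chosen on this very comparison, nothing is read from the counts. Where genes had more than 1 transcript cluster, differences between clusters of the same gene had a pooled SD of 0.131 (273 genes). This spread covers clusters read on the same RNA, and it leaves out differences between cultures. The differences of CPA4 and CPD were smaller than it, and those of the other 4 genes were larger.

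**Figure D2:**
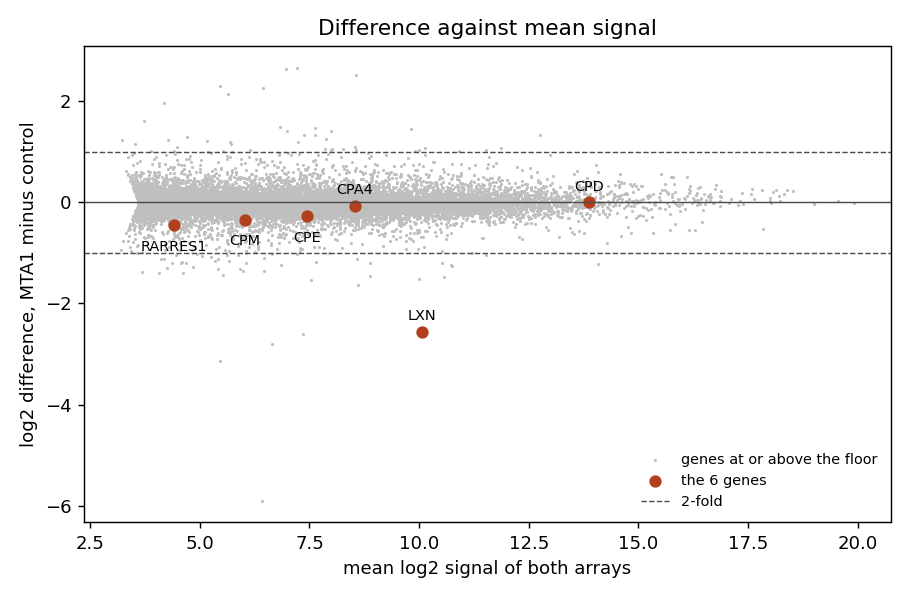
Log2 difference, MTA1 minus control, against the mean log2 signal of both arrays for 14451 genes at or above the floor (grey), with the 6 genes in red and dashed lines at 2-fold. LXN, at -2.56, lies far under the cloud of genes of like signal, while RARRES1, CPM, CPE, CPA4 and CPD lie within it.

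LXN lies inside the span of GFM1, which encodes a mitochondrial translation elongation factor and runs on the opposite strand, and RARRES1 is the next gene on the same strand as LXN. GFM1 had 8.26 on the MTA1 array and 8.28 on the control array, a difference of -0.02. The gene that surrounds LXN was level where LXN was 5.89-fold lower. MLF1, the next measured protein-coding gene on the other side, had 6.30 on the MTA1 array and 6.38 on the control array, and was named after its values were seen. On this stretch of chromosome 3 the signal was lower at LXN, and by less at RARRES1, and the 2 other genes read there were within 0.1 of level. CPM overlaps MDM2, which encodes a ubiquitin ligase for p53 and lies on the opposite strand of chromosome 12. MDM2 had 9.72 on the MTA1 array and 10.27 on the control array, and was 1.46-fold lower, against 1.28-fold for CPM. On the MDM2 side, SLC35E3 had 8.48 on the MTA1 array and 8.50 on the control array. On the CPM side, CPSF6 had 10.49 and 10.66 on the same arrays. These flanking genes, too, were named after their values were seen. Whether any signal is shared between probes of overlapping genes was not tested. GOSR1, next to CPD, was 1.15-fold lower, and BLMH, the gene of the cysteine protease bleomycin hydrolase on the other side of CPD, had 8.19 on the MTA1 array and 8.63 on the control array and was 1.36-fold lower. Before CPA4 on chromosome 7, KLHDC10 had 8.53 on the MTA1 array and 8.64 on the control array, and TMEM209 had 10.74 and 10.81 on the same arrays. BLMH, KLHDC10 and TMEM209 were likewise named after their values were seen. MSMO1, on the side of CPE away from TLL1, was 1.16-fold higher. TLL1, the next measured protein-coding gene after CPE on chromosome 4, was 2.66-fold higher, in the opposite direction to CPE. It was again added after its values were seen. Taking 3 genes on each side of every member gave 32 neighbours, LXN and RARRES1 among them. Of these, 8 had a probe set with a single symbol and 6 reached the floor, so most were not read.

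**Figure D3:**
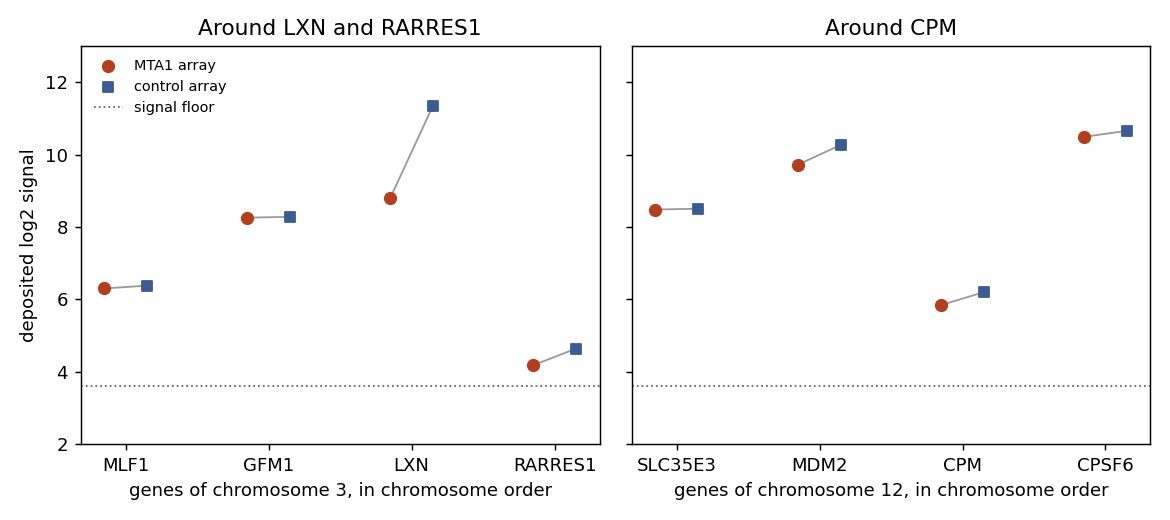
Deposited log2 signals of neighbouring genes on chromosome 3 (left) and chromosome 12 (right), in chromosome order and not to distance, with the MTA1 array as circles, the control array as squares and the floor of 3.62 as a dotted line. GFM1, which surrounds LXN, is at 8.26 on the MTA1 array and 8.28 on the control array, while LXN is at 8.79 and 11.35 on the same arrays.

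The wider set of carboxypeptidases and related genes was close to level. Of 35 such genes listed, which include dipeptidases such as CNDP2, 30 were measured. Of these, 13 reached the floor and 17 did not on either array. None of the 13 was 2-fold apart. Their differences ran from -0.36, that of CPM, to 0.24, with 9 below 0 and 4 above it and a median of -0.07. Over the 9 that are not among the 6 genes, 5 were below 0 and 4 above. Over all genes at or above the floor, 0.339% were at least 2-fold lower, 0.291% at least 2-fold higher and 53.6% below 0. These shares stand beside the counts of the lists below too, and nothing is read from those counts.

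Among the digestive-type enzymes, which latexin can inhibit, CPA4 alone was clearly above background. CPA1 was at 3.66 on the MTA1 array and 3.61 on the control array, at the floor, and the other 6 measured enzymes, CPA3, CPA5, CPA6, CPB1, CPB2 and CPO, were below the floor on both arrays. CPD, CPE and CPM were the 3 regulatory-type genes at or above the floor, while CPN1, CPXM1 and CPXM2 were below it. The cytosolic carboxypeptidases shorten the glutamate chains and C-termini of tubulin. AGTPBP1 among them had 7.99 on the MTA1 array and 8.12 on the control array, and AGBL5 had 5.38 and 5.32 on the same arrays. AGBL2, close to the floor, had 3.73 on the MTA1 array and 3.57 on the control array. The lysosomal serine carboxypeptidase CTSA, also called cathepsin A, had the highest difference of the set, with 12.68 on the MTA1 array and 12.44 on the control array. PRCP, a lysosomal prolylcarboxypeptidase, had 9.68 on the MTA1 array and 9.76 on the control array, and the serine carboxypeptidase SCPEP1 had 8.41 and 8.52 on the same arrays. CNDP2, a cytosolic dipeptidase, had 7.50 on the MTA1 array and 7.73 on the control array, and CTSZ, a lysosomal cysteine carboxypeptidase, had 7.45 and 7.49 on the same arrays.

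The genes of prohormone processing that could be read were close to level. Of 9 listed, 6 were measured and 5 reached the floor, 2 above 0 and 3 below, with a median of -0.013 and none 2-fold apart. The convertases PCSK1, PCSK2 and PCSK6 had no probe set with a single symbol. Nothing can be said of their levels. PAM, which amidates peptide C-termini after CPE has trimmed them, had 11.78 on the MTA1 array and 11.62 on the control array. SCG5, a chaperone of the proprotein convertase PCSK2, had 8.55 on the MTA1 array and 8.66 on the control array. FURIN, the convertase of the constitutive secretory pathway, had 9.04 on the MTA1 array and 9.06 on the control array. PCSK7, another convertase, had 6.21 on the MTA1 array and 6.13 on the control array. PCSK1N, which encodes an inhibitor of the convertase PCSK1, had 3.72 and 3.74 on the same arrays, close to the floor. Among 13 peptide precursor genes 9 did not reach the floor on either array. The 4 others were above 0, with a median of 0.16, which became -0.088 with the arrays shifted to the hybridisation controls. ADM, the precursor of adrenomedullin, had 9.71 on the MTA1 array and 8.78 on the control array and was 1.90-fold higher, and GAST, the gastrin precursor, had 6.78 and 6.61 on the same arrays. NPY had 4.29 on the MTA1 array and 4.13 on the control array, and CALCA had 4.28 and 4.27 on the same arrays.

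Kinin and anaphylatoxin genes hold the known substrates and receptors of carboxypeptidases that remove C-terminal arginine. Of 10 measured, 4 reached the floor, with 1 above 0, 3 below and a median of -0.05. C3, the complement protein from which the anaphylatoxin C3a is cut, had 10.11 on the MTA1 array and 11.38 on the control array. It was 2.41-fold lower and the only one of the 10 past 2-fold. C5 had 4.43 on the MTA1 array and 4.39 on the control array, and the kinin receptor gene BDKRB1 had 4.99 and 5.03 on the same arrays. C5AR2, a receptor for C5a, had 3.97 on the MTA1 array and 4.03 on the control array.

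Cystatins, cysteine protease inhibitors whose fold latexin shares, were near level. Of 9 measured, 5 reached the floor, with 1 above 0, 4 below, a median of -0.05 and none 2-fold apart. CSTA, an epithelial cystatin, had 3.66 on the MTA1 array and 4.11 on the control array, close to the floor. CST3, the widely secreted cystatin C, had 10.04 on the MTA1 array and 10.09 on the control array. CSTB, an intracellular cystatin, had 6.43 on the MTA1 array and 6.34 on the control array. CST7 had 4.04 on the MTA1 array and 4.13 on the control array, and CST2 had 3.83 and 3.88 on the same arrays.

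Retinoid response genes give the setting of RARRES1. Of 15 listed, 13 were measured and 11 reached the floor, with 5 above 0, 6 below, a median of -0.04 and none 2-fold apart. The lowest was RARRES2, the precursor of the chemoattractant chemerin, which is activated by trimming of its C-terminus. It had 5.87 on the MTA1 array and 6.80 on the control array and was 1.90-fold lower. The retinoid receptor gene RARG had 6.42 on the MTA1 array and 6.59 on the control array, and CYP26B1, an enzyme that breaks down retinoic acid, had 4.28 and 4.16 on the same arrays. TGM2, a transglutaminase, had 11.54 on the MTA1 array and 11.39 on the control array, and STRA6, a membrane carrier of retinol, had 7.93 and 7.81 on the same arrays. The list did not move one way, and RARRES1 and RARRES2 were its lowest members.

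**Figure D4:**
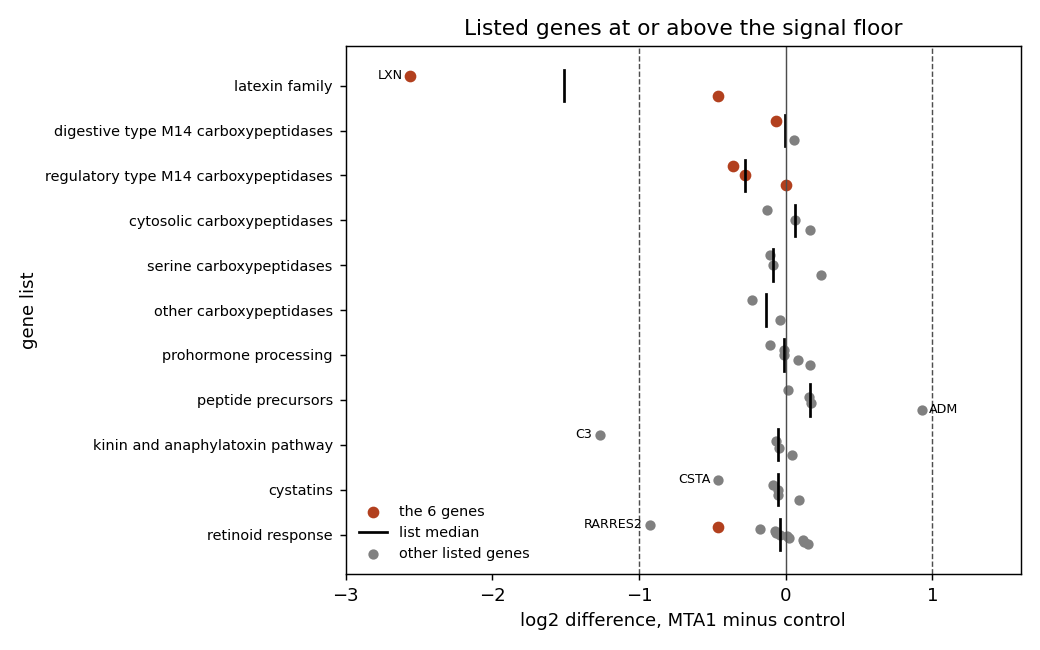
Log2 difference, MTA1 minus control, of each listed gene at or above the floor (points), by list, with the list median as a black bar, the 6 genes in red and dashed lines at 2-fold. LXN at -2.56 and C3 at -1.27 lie past 2-fold, and the other points lie inside the dashed lines.

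The genes whose pair of signals lay nearest to that of LXN were sought by Euclidean distance over the 2 arrays, with 5 named. They were MIR21, IL24, PLXDC2, IL18 and NFIB, at distances of 0.75 to 1.19 log2 units. Genes named only as a numbered locus, LINC RNA or open reading frame were skipped. MIR21, a microRNA gene, was closest, with 9.23 on the MTA1 array and 10.75 on the control array, and was 2.86-fold lower. IL24, a cytokine gene, had 9.82 on the MTA1 array and 11.30 on the control array, and PLXDC2, a plexin domain membrane protein gene, had 9.92 and 11.12 on the same arrays. Each was lower by less than LXN. The distance depends on probe brightness as well as on the difference, and likeness over only 2 arrays says nothing of shared control.

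**Figure D5:**
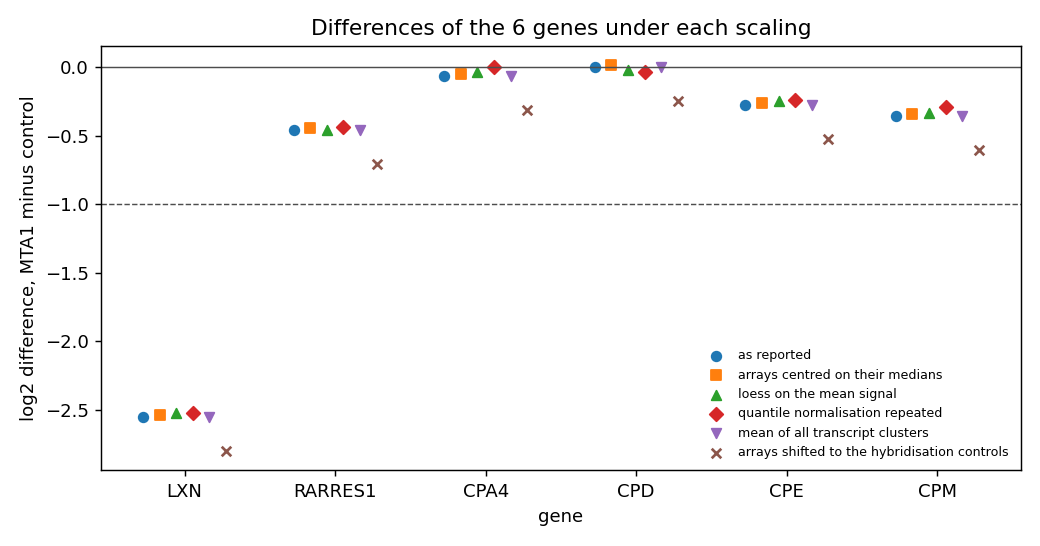
Log2 difference, MTA1 minus control, of the 6 genes as reported and under 5 alternative settings (symbols), with a dashed line at 2-fold lower. LXN lies between -2.80 and -2.53 and past the line under each setting, and none of the other genes reaches the line. The mean of all transcript clusters could not move any of the 6, since each has 1 cluster.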

How the data were processed

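The submitters' processing notes name RMA as the authors' method for the deposited log2 signals. Its software version, summarisation level and annotation release are not given in the sources used. At 829 features a signal exceeded 16, more than the log2 of any 16-bit scanner reading, so a further, unstated transformation affects fold sizes. The values were used as deposited.

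Probe sets were named through the platform's table. Of those with 1 gene symbol, 23781 in all, 21497 took the current symbol of RefSeq assembly GRCh38.p14 by gene identifier, and 1543 with several symbols named no gene. The brightest probe set stood for each gene, with a floor of 3.62. The array's build is not named, so RefSeq gave only names, gene order and start windows, with the windows' own coordinates.

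With 1 array per group, no test was run. Named were the 6 genes, list members at or above the floor (the 6 of largest difference in longer lists), marker genes, 3 neighbours on each side, the 5 genes nearest LXN and genes said to be added later. The 6 genes and the lists were chosen with earlier results of these data known. The counting steps were tested on simulated data. Python 3.11.15, pandas 2.3.3, numpy 2.4.6 and R 4.3.3 with limma 3.58.1 were used. Alternatives covered scaling, floor, fold threshold and the choice of probe set.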

Additional observations from a re-analysis of the deposited data

How the results depend on the processing

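No paired analysis was possible because each group had 1 array. Of 144 values recomputed under alternatives, 116 stayed within the pooled SD between clusters (differences and medians) or within 1.5 times (counts), and 28 did not. No difference past 2-fold changed sign, which covers only LXN and the latexin family median. Several list medians close to 0 did change sign, such as that of the cytosolic carboxypeptidases, from 0.06 to -0.13 with the floor at percentile 75. Under the 4 other settings of scaling and probe set, LXN ranged from -2.56 to -2.53. Averaging transcript clusters could not move the 6 genes, since each had 1 cluster, and these values are counted among the 116. Centring on the medians moves the differences of all genes alike. The medians differed by -0.015, less in size than the pooled SD of 0.131, so centring could not take a gene's difference past that limit. A shift that levels the hybridisation controls, chosen after seeing the data, lowers each difference by the mean of these controls, 0.24. The 6 genes were then at -2.80 (LXN), -0.70 (RARRES1), -0.31 (CPA4), -0.25 (CPD), -0.53 (CPE) and -0.60 (CPM), with 17 genes 2-fold higher and 119 lower in all. The list medians were then -1.75 for latexin family, -0.25 for digestive type M14 carboxypeptidases, -0.41 for regulatory type M14 carboxypeptidases, -0.18 for cytosolic carboxypeptidases, -0.33 for serine carboxypeptidases, -0.38 for other carboxypeptidases, -0.26 for prohormone processing, -0.088 for peptide precursors, -0.30 for kinin and anaphylatoxin pathway, -0.30 for cystatins, -0.28 for retinoid response, -0.26 for all genes. At a fold threshold of 1.5, 210 genes were higher and 252 lower. With the floor at percentile 75 the medians were -2.56 for the latexin family, where LXN alone was left, -0.13 for cytosolic carboxypeptidases, 0.55 for peptide precursors and -1.27 for the kinin list, where C3 alone was left. With no floor they were -0.028 for regulatory-type and -0.0038 for other carboxypeptidases.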
